A study of Mus musculus with 28 samples.

Results

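Bulk RNA sequencing of mouse tail tendon fascicles was examined for 9 genes, Srcin1, Mlc1, Kcnb2, Gucy1a2, Oit3, Rasgrf2, Popdc3, Zbtb47 and Pygo1, out of 25719 genes in the count tables. These genes were chosen by their own readout, a loss in the tendons of transgenic mice with established disease that was not seen in early disease. Their genotype and stage differences are therefore given as descriptions without a test. The choice used no numerical threshold, so it does not set these genes apart from others with a like loss. The Fosl-2(Tg) mice (hereafter Tg) carry a randomly inserted mouse Fosl2 transgene under the broadly active H2Kb class I promoter, joined to eGFP, and non-transgenic mice of the same breeding (WT) were the controls, all on a C57BL/6 background. The early cohort, aged 6 to 8 weeks, held 7 WT and 8 Tg mice, all male. The established cohort, older than 14 weeks, held 6 WT mice (5 female, 1 male) and 7 Tg mice (6 female, 1 male). Stage and sex can therefore hardly be told apart. Each library came from 1 mouse and held whole-tissue RNA. In such bulk samples, fewer cells of a type and less RNA per cell cannot be told apart.

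Tendon fascicles are bundles of aligned collagen fibres with sparse resident fibroblasts. The basic helix-loop-helix factor Scx marks these cells and binds short E-box sequences, and Col1a1 encodes a chain of type I collagen, the main tendon protein. Fosl2 is a subunit of the dimeric AP-1 transcription factor. The 9 genes have unlike roles, and several are better known from brain, heart or liver than from tendon. Srcin1, Rasgrf2 and Gucy1a2 act in signalling downstream of adhesion, calcium and nitric oxide. Kcnb2, Mlc1 and Popdc3 are membrane proteins, Oit3 is a secreted protein, and Zbtb47 and Pygo1 act in the nucleus.

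Total counts ranged from 9645598 to 66894396 per library. TMM scaling factors were 0.695 to 1.04 in the early libraries, 1.03 to 1.1 in the established WT libraries and 1.19 to 1.45 in the established Tg libraries, in which Col1a1 took a smaller share of the reads. Levels are given as CPM, counts relative to these scaled library totals. Fosl2 did not separate the genotypes, with 78 to 169 CPM in established WT and 121 to 160 CPM in established Tg mice (log2 fold change 0.38, edgeR adjusted p = 0.141), and its counts hold both the native and the transgene transcripts. Tg replicate 5, the established Tg male, stood at the low end. It held the lowest value of its group for 8 of the 9 genes, along with 6.64 CPM of Scx and 989 CPM of Col1a1. Its library also had the lowest total count of the group (9664327). Its muscle score, the mean log2 CPM of the skeletal muscle markers, was the highest of the group (8.70).

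The sequences before the start sites are shown because Scx and Fosl2 have known DNA letters. The window of 300 bases from 250 before to 50 after the start of each gene's canonical transcript (GENCODE, GRCm39) was searched on both strands for an E-box (CANNTG), an AP-1 element (TGANTCA) and a cyclic AMP response element (TGACGTCA). An E-box occurred in 7 of the 9 windows, beside 70.6% of 21571 protein-coding windows. Neither the AP-1 element (7.15% of windows) nor the cyclic AMP response element (2.45%) occurred in any of the 9. A match or its absence describes only the letters in this window. Printed are the 250 bases before the start of Srcin1 (chr11:97466260-97466509 on the minus strand), which fell furthest among the better expressed genes, of Zbtb47 (chr9:121588824-121589073 on the plus strand), which followed both tendon genes most closely within groups, of Pygo1 (chr9:72832116-72832365 on the plus strand), which like Oit3 had no E-box, and of Scx itself (chr15:76341313-76341562 on the plus strand). Capitals mark E-boxes.
Srcin1: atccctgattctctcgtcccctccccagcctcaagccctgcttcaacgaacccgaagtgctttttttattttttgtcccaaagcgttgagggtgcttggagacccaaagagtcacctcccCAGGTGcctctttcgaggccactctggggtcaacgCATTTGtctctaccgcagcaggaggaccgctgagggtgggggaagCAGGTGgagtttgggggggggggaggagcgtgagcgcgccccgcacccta
Zbtb47: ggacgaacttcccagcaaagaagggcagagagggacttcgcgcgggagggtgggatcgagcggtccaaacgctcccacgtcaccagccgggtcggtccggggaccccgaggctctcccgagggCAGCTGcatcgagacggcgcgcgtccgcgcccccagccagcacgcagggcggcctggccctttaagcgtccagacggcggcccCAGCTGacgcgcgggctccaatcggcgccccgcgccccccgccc
Pygo1: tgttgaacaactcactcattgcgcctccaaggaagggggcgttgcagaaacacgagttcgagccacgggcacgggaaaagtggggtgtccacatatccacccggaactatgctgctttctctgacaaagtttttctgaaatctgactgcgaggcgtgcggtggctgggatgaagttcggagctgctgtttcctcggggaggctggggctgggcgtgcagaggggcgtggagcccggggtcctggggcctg
Scx: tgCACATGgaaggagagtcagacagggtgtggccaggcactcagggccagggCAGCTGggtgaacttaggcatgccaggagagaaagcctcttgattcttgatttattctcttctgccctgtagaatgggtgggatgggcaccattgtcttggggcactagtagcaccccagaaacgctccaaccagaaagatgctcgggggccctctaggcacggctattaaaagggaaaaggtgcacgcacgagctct
The E-boxes of Srcin1 began 130, 95 and 50 bases before the start. Those of Zbtb47 began 127 and 44 bases before it, with another 24 bases after it that lies past the printed stretch. Rasgrf2 held 4 E-boxes, Popdc3 held 3, Kcnb2 and Gucy1a2 held 2 each and Mlc1 held 1.

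In established tendon, all 9 genes were lower in Tg than in WT mice, with log2 fold changes from -0.77 to -3.13 and a median of -1.70, beside a median of 0.01 over the 15862 genes tested. The Tg mice all lay below the WT mice for 8 of the 9 genes, beside 2.33% of all tested genes, and that share only restates how the genes were chosen. In early tendon, the genotypes overlapped for all 9 genes (0.0528% of 15138 tested genes did not overlap), and the log2 fold changes ran from 0.01 to 0.45 with a median of 0.32, beside a median of -0.01 over all genes. On library totals without scaling factors, where the early median of all genes shifted by -0.18, Srcin1 (-0.13), Gucy1a2 (-0.16) and Zbtb47 (-0.06) lay below 0 in early tendon. Among the 11 established females alone, the log2 fold changes ran from -0.72 to -2.98 with a median of -1.70. Without Tg replicate 5 they ran from -0.76 to -3.04.

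**Figure D1:**
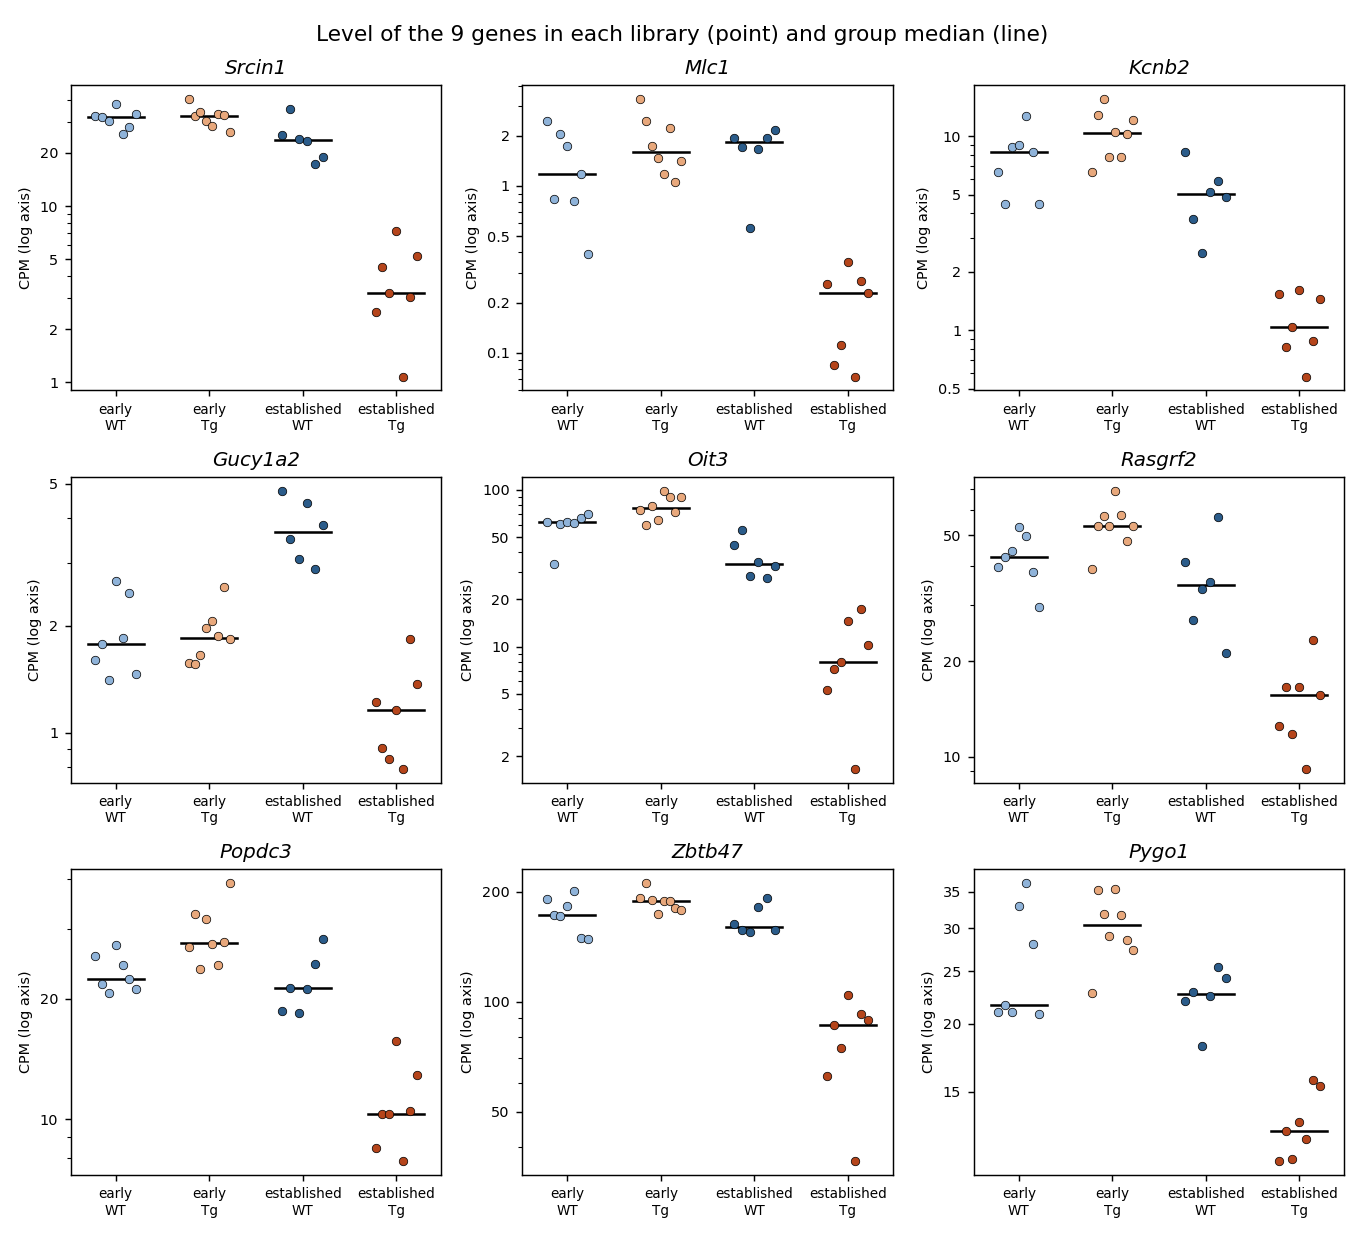
CPM of each of the 9 genes on a log axis, with 1 point for each library in the 4 groups and a line at the group median. The 7 established Tg libraries lie below the 6 established WT libraries in every panel but that of Rasgrf2, and the 2 early groups overlap in every panel. Established WT stands above early WT for Gucy1a2.

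Srcin1 (ENSMUSG00000038453, GRCm39 chromosome 11, 97400161 to 97467012, minus strand) encodes an adaptor, also called p140Cap, that restrains Src kinase through Csk at adhesion sites. Its level was lowest 17.2, median 23.7 and highest 35.6 CPM in established WT, and lowest 1.08, median 3.2 and highest 7.25 CPM in established Tg mice. The highest Tg mouse thus stayed below the lowest WT mouse, and the log2 fold change was -2.63 (SE 0.32), a 6.18-fold lower level. In early tendon, 25.6 to 37.8 CPM in WT (median 32) and 26.3 to 40.5 CPM in Tg (median 32.5) gave a log2 fold change of 0.04 (SE 0.10), the early groups being almost superimposed.

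Rasgrf2 (ENSMUSG00000021708, chromosome 13, 92027891 to 92269375, minus strand) encodes a calcium-responsive exchange factor that loads Ras and Rac with GTP. It was the only one of the 9 whose established genotypes overlapped. WT mice held 21.2 to 57 CPM (median 34.7), with the male highest, and Tg mice held 9.16 to 23.3 CPM (median 15.6), so that Tg replicate 6 exceeded WT replicate 6. The log2 fold change was -1.25 (SE 0.23), and -0.98 among females. Early WT mice held 29.7 to 53.2 CPM (median 42.5) and early Tg mice 39.1 to 68.9 CPM (median 53.6), a log2 difference of 0.34 (SE 0.13).

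Gucy1a2 (ENSMUSG00000041624, chromosome 9, 3532778 to 3905741, plus strand) encodes an alpha subunit of soluble guanylyl cyclase, the receptor that makes cyclic GMP in response to nitric oxide. Its level was 2.88 to 4.77 CPM in established WT (median 3.65) and 0.793 to 1.83 CPM in established Tg mice (median 1.16), a log2 fold change of -1.70 (SE 0.20) without overlap. In early tendon it was 1.41 to 2.67 CPM in WT (median 1.77) and 1.56 to 2.56 CPM in Tg (median 1.85), a log2 difference of 0.01 (SE 0.17). Its course differed from that of the other genes. From early to established it was higher by 0.98 (SE 0.19) in WT and lower by a log2 change of -0.73 (SE 0.19) in Tg, and the established Tg range still overlapped both early ranges.

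Kcnb2 (ENSMUSG00000092083, chromosome 1, 15356816 to 15793974, plus strand) encodes a pore-forming subunit of a delayed-rectifier potassium channel. Established WT mice held 2.51 to 8.34 CPM (median 5.02) and established Tg mice 0.577 to 1.61 CPM (median 1.04), with no overlap and a log2 fold change of -2.16 (SE 0.29). Early WT mice held 4.45 to 12.7 CPM (median 8.3) and early Tg mice 6.57 to 15.6 CPM (median 10.4), a log2 difference of 0.42 (SE 0.23). The transcripts Gm38116 and Gm37138 lie inside Kcnb2 on the same strand but share 0 exonic bases with it.

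Mlc1 (ENSMUSG00000035805, chromosome 15, 88840084 to 88863356, minus strand) encodes a membrane protein of astrocyte end-feet that is mutated in a leukoencephalopathy with cysts. It had the largest fold change and the fewest reads of the 9. The 7 established Tg libraries held 1 to 7 reads each, 30 in all, and the 6 established WT libraries held 13 to 119, 326 in all. These were 0.0721 to 0.352 CPM in Tg (median 0.228) and 0.563 to 2.17 CPM in WT (median 1.83), and the ranges did not overlap. The log2 fold change of -3.13 (SE 0.38) therefore rests on few reads. In early tendon the levels were 0.392 to 2.46 CPM in WT (median 1.18) and 1.05 to 3.33 CPM in Tg (median 1.6), with 8 to 51 and 17 to 42 reads per library and a log2 difference of 0.45 (SE 0.35).

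Popdc3 (ENSMUSG00000019848, chromosome 10, 45054194 to 45199225, plus strand) encodes a cyclic AMP-binding Popeye domain membrane protein, a family known from heart and skeletal muscle. Established WT mice held 18.4 to 28.2 CPM (median 21.3) and established Tg mice 7.86 to 15.7 CPM (median 10.3), a log2 fold change of -1.01 (SE 0.16) without overlap. Early WT mice held 20.7 to 27.3 CPM (median 22.5) and early Tg mice 23.8 to 39 CPM (median 27.6), a log2 difference of 0.32 (SE 0.11).

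Oit3 (ENSMUSG00000009654, chromosome 10, 59258780 to 59277702, minus strand) encodes a secreted zona pellucida domain protein best known from liver. Established WT mice held 27.2 to 55.7 CPM (median 33.5) and established Tg mice 1.66 to 17.3 CPM (median 7.94), a log2 fold change of -2.01 (SE 0.38) without overlap. The spread among the established Tg mice, a coefficient of variation of 58.4%, was the widest of the 9 genes. Early WT mice held 33.4 to 70.4 CPM (median 62.4) and early Tg mice 59.6 to 98.4 CPM (median 76.5), a log2 difference of 0.40 (SE 0.14). Oit3 shares 50 exonic bases with Pla2g12b on the opposite strand, so a few of its reads could belong to that gene if counting ignored strand.

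Zbtb47 (ENSMUSG00000013419, chromosome 9, 121588396 to 121600808, plus strand) encodes a BTB zinc finger protein and had the highest level of the 9. It stood at 155 to 192 CPM in established WT (median 160) and 36.7 to 104 CPM in established Tg mice (median 86.3), a log2 fold change of -1.10 (SE 0.18) without overlap. Early levels were tightly grouped at 148 to 201 CPM in WT (median 173) and 174 to 211 CPM in Tg (median 188), a log2 difference of 0.11 (SE 0.08).

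Pygo1 (ENSMUSG00000034910, chromosome 9, 72832366 to 72859865, plus strand) encodes a PHD finger coactivator in the beta-catenin complex of Wnt signalling. It had the smallest difference of the 9 and the least spread among established Tg mice, with a coefficient of variation of 14.2%. Established WT mice held 18.2 to 25.4 CPM (median 22.7) and established Tg mice 11.2 to 15.8 CPM (median 12.7), a log2 fold change of -0.77 (SE 0.11) without overlap. Early WT mice held 20.9 to 36.3 CPM (median 21.7) and early Tg mice 22.8 to 35.4 CPM (median 30.4), a log2 difference of 0.22 (SE 0.14).

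Per kilobase of annotated exon, the levels in established WT tendon ran over a wide range. Zbtb47 was highest at 22.3 ± 2.06 CPM per kb (SD, n = 6), followed by Oit3 at 12.8 ± 3.79. Rasgrf2 (3.53 ± 1.22), Popdc3 (3.02 ± 0.509), Pygo1 (2.54 ± 0.278) and Srcin1 (1.99 ± 0.534) came next, and neighbours in that order lay within their spread. Mlc1 (0.406 ± 0.139), Kcnb2 (0.237 ± 0.0926) and Gucy1a2 (0.212 ± 0.0419) were lowest, the last pair within their spread. Scx stood at 30.7 ± 4.67 and Col1a1 at 11181 ± 3061 CPM per kb in the same mice.

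Compared between stages within a genotype, all 9 genes fell in the Tg mice, and Gucy1a2 also rose in WT, by a larger log2 change (0.98, SE 0.19). From early to established Tg tendon the log2 changes were -3.27 for Mlc1 (SE 0.41), -3.20 for Kcnb2 (SE 0.28), -3.10 for Oit3 (SE 0.29) and -3.05 for Srcin1 (SE 0.23), and they ran from -1.84 for Rasgrf2 to -0.73 for Gucy1a2 in the other genes. All established Tg mice lay below all early Tg mice, and below all early WT mice, for 8 of the 9 genes, the exception in both being Gucy1a2. The share of all genes that did so was not counted, and the 9 genes were chosen for such a loss. In WT tendon the same stage difference was smaller for all genes but Gucy1a2. It was -0.68 for Oit3 (SE 0.28), -0.61 for Kcnb2 (SE 0.27) and -0.38 for Srcin1 (SE 0.22), and 7 of the 9 were lower in established than in early WT mice, with Mlc1 (0.31, SE 0.35) and Gucy1a2 higher. Early mice were all male and established mice nearly all female, so age and sex cannot be told apart here.

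**Figure D2:**
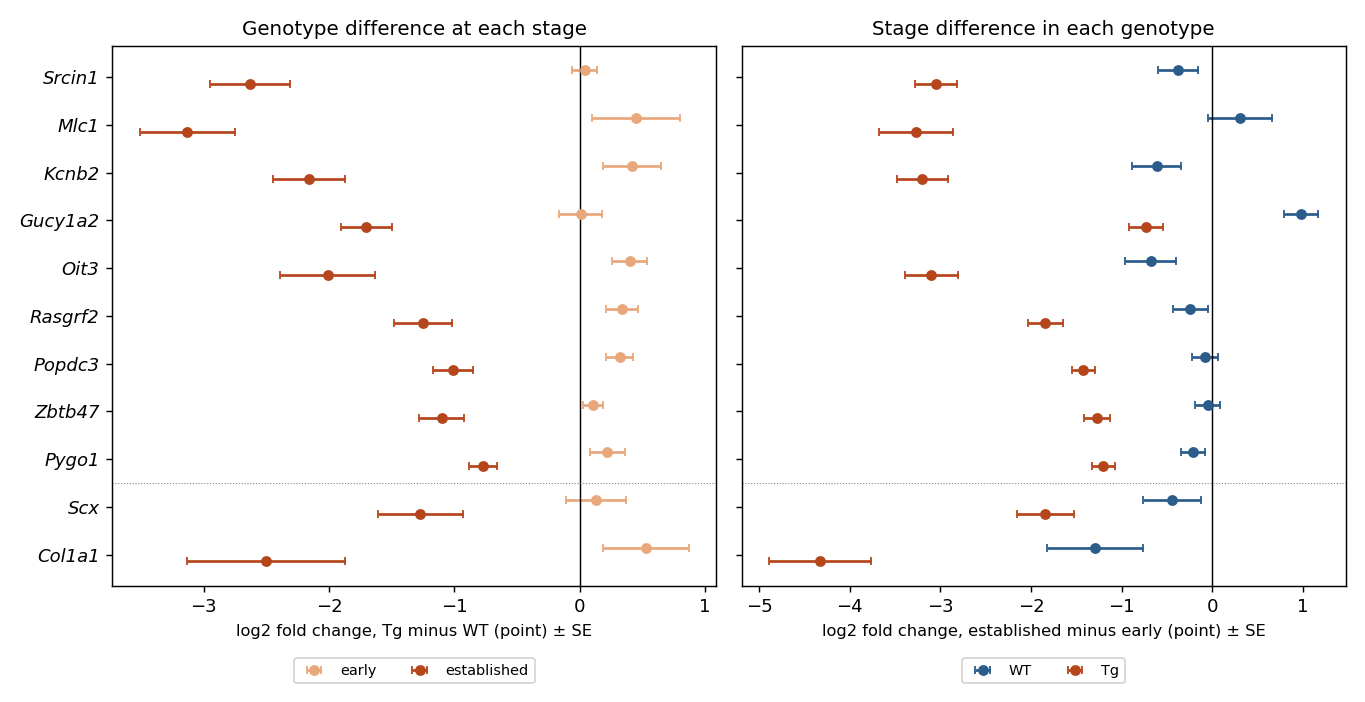
Log2 fold changes (points) with standard errors (bars) for the 9 genes and, below the dotted line, Scx and Col1a1. The left panel gives Tg minus WT at each stage and the right panel established minus early in each genotype; early genotype differences sit near or above 0, and established Tg values lie left of 0 for all genes.

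Scx and Col1a1 served as tendon reference genes. Scx fell in established Tg tendon, from 68.6 to 104 CPM in WT (median 83.9) to 6.64 to 54 CPM (median 38.1), with a log2 fold change of -1.27 (SE 0.34, edgeR quasi-likelihood adjusted p = 0.0444). Col1a1 fell from 44250 to 100078 CPM (median 74327) to 989 to 28248 CPM (median 10236), with a log2 fold change of -2.50 (SE 0.63, edgeR adjusted p = 0.0356). Neither genotype range overlapped the other. Both calls lie close to the threshold. That of Scx was lost without any 1 of the WT replicates 1 to 6 or of the Tg replicates 1, 2 and 3 (edgeR adjusted p up to 0.0825), and that of Col1a1 without any 1 of those libraries other than WT replicate 3 (edgeR adjusted p up to 0.0715). In early tendon neither passed (Scx 0.13, edgeR adjusted p = 0.948; Col1a1 0.53, edgeR adjusted p = 0.853). Srcin1 and Mlc1 had larger established log2 differences than Col1a1, Gucy1a2, Oit3 and Kcnb2 lay between the anchors, and Pygo1, Popdc3, Zbtb47 and Rasgrf2 had smaller ones than Scx.

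Expressed as a log2 ratio to Scx in the same library, Srcin1 went from -1.82 (SD 0.54) in established WT to -3.07 (SD 0.59) in established Tg mice, and Mlc1 from -5.66 (SD 0.55) to -6.75 (SD 0.94). Gucy1a2 kept nearly the same ratio to Scx, -4.46 (SD 0.34) and -4.58 (SD 0.92), while that of Pygo1 rose from -1.88 (SD 0.15) to -1.14 (SD 0.99). Against Col1a1, the mean ratio of all 9 genes was higher in established Tg than in WT mice, by 0.39 for Srcin1 up to 2.39 for Pygo1. For Srcin1 and Mlc1 (0.55) this is the reverse of the order of the fitted log2 fold changes above. The ratios average logs over libraries, and Col1a1 in established Tg replicates 1 and 5 deviated by -2.08 and -3.00 from the group mean log2 CPM. All ratios are levels per library on a log2 CPM scale with a prior count of 2. Beside the 1 to 7 reads of Mlc1 in each established Tg library, that prior count raises its level and shrinks its fall. Whether Mlc1 rose against Col1a1 can therefore not be told, and its fall against Scx may be understated.

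Whether the genes followed Scx and Col1a1 from mouse to mouse was tested within groups. The choice of genes rested on group differences, which removal of the group means takes out. The genes were nevertheless chosen with earlier results of these data known. Group means were removed from log2 CPM and the deviations of the 28 libraries were correlated, with permutation within groups and p-values adjusted over the 18 relations. All 18 correlations were positive, and 10 passed. The share of all genes that follow Scx or Col1a1 within groups was not counted. These counts therefore do not set the chosen genes apart from other genes in how they follow Scx and Col1a1. Zbtb47 followed both most closely, with Scx at r = 0.84 and rho = 0.74 (permutation adjusted p = 0.00099 for each) and with Col1a1 at r = 0.86 and rho = 0.75 (permutation adjusted p = 0.00036 and 0.00099). Oit3 gave r = 0.76 and rho = 0.52 with Scx (permutation adjusted p = 0.00213 and 0.0185) and r = 0.78 and rho = 0.53 with Col1a1 (permutation adjusted p = 0.00204 and 0.0185). Rasgrf2 gave r = 0.63 and rho = 0.64 with Scx (permutation adjusted p = 0.00114 and 0.00099) and r = 0.61 and rho = 0.61 with Col1a1 (permutation adjusted p = 0.00204 and 0.00371). Pygo1 gave r = 0.60 and rho = 0.71 with Scx (permutation adjusted p = 0.00204 and 0.00099) and r = 0.50 and rho = 0.60 with Col1a1 (permutation adjusted p = 0.00945 and 0.00432).

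The other relations were weaker or rested on a few libraries. Kcnb2 passed with Scx (r = 0.49, rho = 0.43, permutation adjusted p = 0.0149 and 0.046) and Srcin1 with Col1a1 (r = 0.71, rho = 0.48, permutation adjusted p = 0.0106 and 0.0384). Without the 2 libraries farthest from the anchor's median, established Tg replicate 5 and early WT replicate 5 for Scx and established Tg replicates 1 and 5 for Col1a1, r was 0.25 for Kcnb2 with Scx (permutation p = 0.204) and 0.25 for Srcin1 with Col1a1 (permutation p = 0.276), so both rest on those libraries. Without Tg replicate 5 alone, 8 of the 10 relations passed, those of Oit3, Rasgrf2, Zbtb47 and Pygo1. Without the 2 farthest libraries, Oit3 with Col1a1 stood at r = 0.43 (permutation p = 0.0542) and thus also rested on them, while the other 7 of these relations ran from r = 0.50 to 0.70. Mlc1, at r = 0.27 with Scx and 0.21 with Col1a1, and Gucy1a2, at 0.44 and 0.36, did not pass. Popdc3, at r = 0.46 with Scx and 0.50 with Col1a1, passed by rho only (0.47 and 0.45, permutation adjusted p = 0.0349 and 0.041), as did Kcnb2 with Col1a1 (r = 0.36, rho = 0.42, permutation adjusted p = 0.094 and 0.0482). Srcin1 with Scx did not pass by either (r = 0.53, rho = 0.14). For Mlc1 the low counts limit what could be detected.

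**Figure D3:**
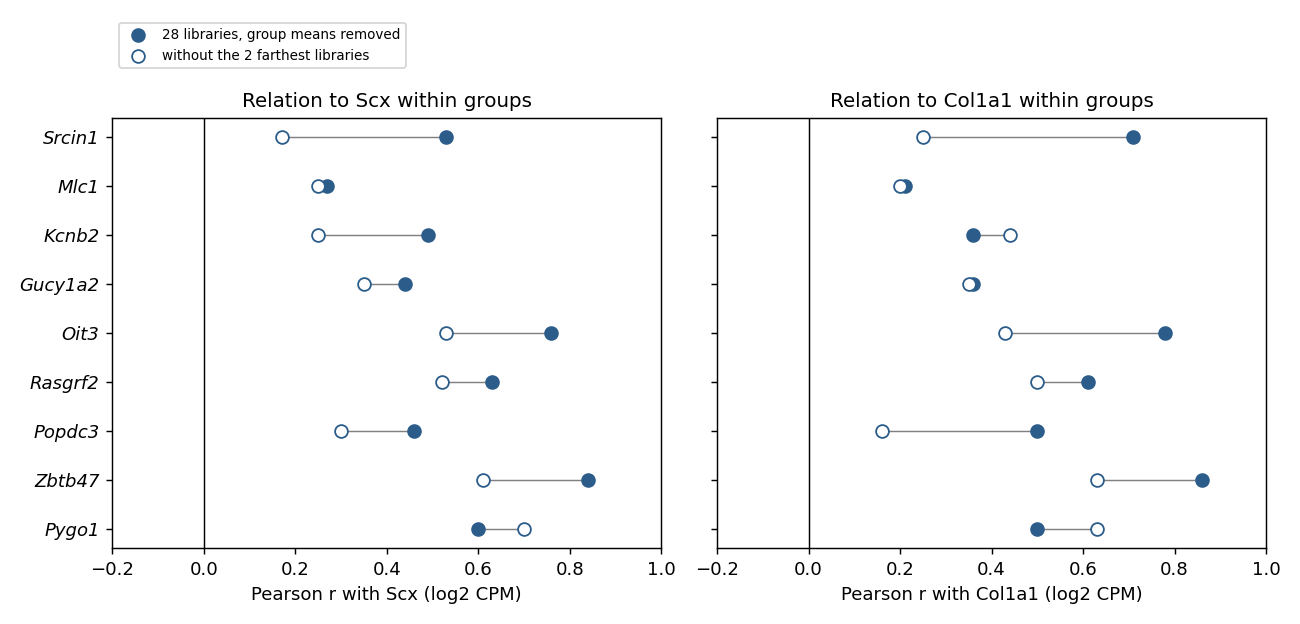
Pearson r of each gene with Scx (left) and Col1a1 (right) across the 28 libraries after removal of group means (filled) and without the 2 libraries farthest from the anchor's median (open). Zbtb47 is highest at 0.84 and 0.86 and stays above 0.60 without those libraries, whereas Srcin1 drops from 0.71 to 0.25 against Col1a1.

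The relations differed between stages in number. Among the 13 established libraries 7 of the 18 passed, none of them of Pygo1, and among the 15 early libraries 2 passed, both of Pygo1 (r = 0.80 with Scx and 0.79 with Col1a1). The difference between stages was not tested. Within the 7 established Tg mice alone, all 18 correlations were positive, with medians of 0.74 for Scx and 0.83 for Col1a1. Zbtb47 reached r = 0.96 with Scx (exact permutation p = 0.00536, unadjusted) and 0.94 with Col1a1 (exact permutation p = 0.000198, unadjusted). Among these mice, replicate 5 lay farthest from the group mean log2 CPM, by -2.10 for Scx and -3.00 for Col1a1. The correlations within this group alone are not given without it. Within the 6 established WT mice, the median r was 0.65 for Scx and 0.02 for Col1a1. In the early groups the medians for Scx and Col1a1 were 0.57 and 0.60 in WT mice, and 0.20 and -0.10 in Tg mice. On library totals without scaling factors, 3 of the 18 passed. Within groups, the tendon marker score without Scx and Col1a1 correlated with Oit3 at r = 0.90 and Zbtb47 at 0.86, but with Pygo1 at 0.25 and Kcnb2 at 0.26. Between the 9 genes themselves, all 36 correlations were positive (median r = 0.34), and 1 passed, that of Rasgrf2 with Zbtb47 (r = 0.64, rho = 0.66, permutation adjusted p = 0.0115 and 0.0187).

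**Figure D4:**
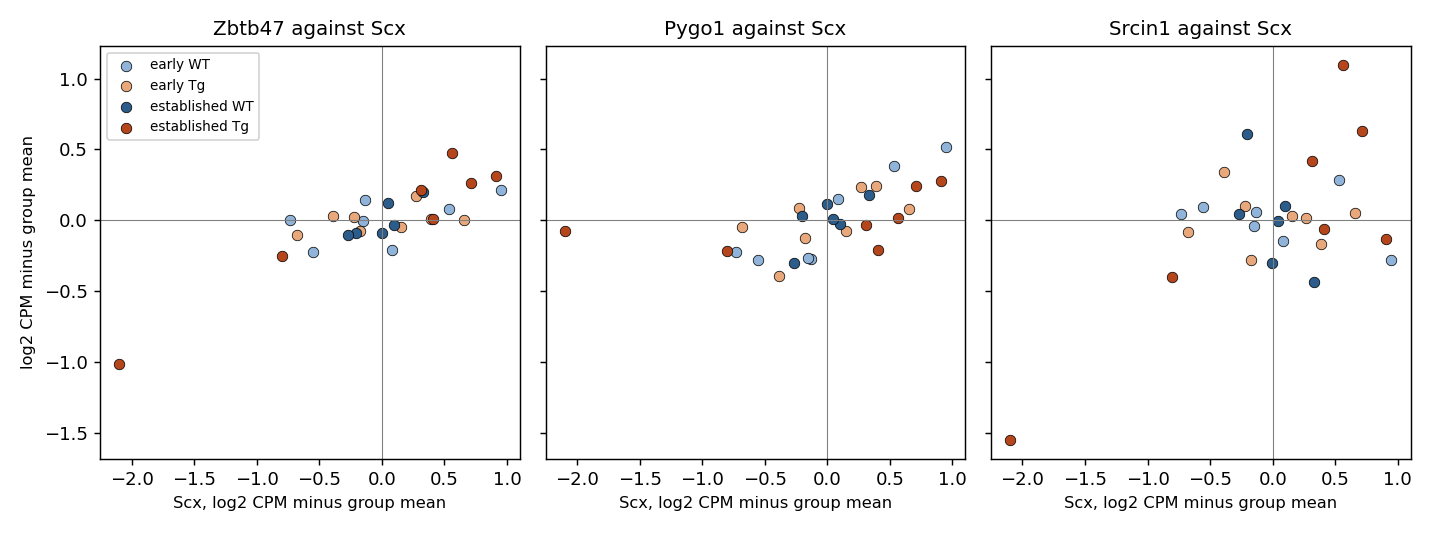
Log2 CPM minus the group mean of Zbtb47, Pygo1 and Srcin1 (vertical axis) against that of Scx (horizontal axis), 1 point for each of the 28 libraries. Zbtb47 and Pygo1 rise with Scx in the cloud of points (r = 0.84 and 0.60), and for Srcin1 (r = 0.53) the single point at the lower left, established Tg replicate 5, lies far from the rest, with r = 0.07 without it.

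The molecular partners and relatives of the 9 genes were tested across all genes. Of 141 listed, 119 could be tested at the established stage and 7 passed (5.88%), 4 lower and 3 higher, near the 6.51% of all genes, with a median log2 fold change of -0.05. On library totals, where the median log2 fold change of all genes was 0.33, 58 passed, 3 lower and 55 higher, so that small changes of single partners depend on the scaling. At the early stage 0 of 119 passed by edgeR and 0 by DESeq2, with 7 at an unadjusted p under 0.05, and 0.0396% of all genes passed. For the difference of the Tg effect between stages 7 of 123 passed, beside 7.43% of all genes.

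Of 14 listed partners of Kcnb2, 7 could be tested. The endoplasmic reticulum anchors of these channels, Vapb (-0.12) and Vapa (-0.06), did not pass.

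Among Srcin1 partners, 1 of 15 passed. Bcar1, the p130Cas docking protein to which Srcin1 binds, fell from 34.3 to 47.4 CPM (median 42.4) to 14.4 to 33.7 CPM (median 30.5) without overlap, with a log2 fold change of -0.61 (SE 0.16, edgeR adjusted p = 0.0379). This call was lost on library totals (edgeR adjusted p = 0.1) and without any 1 of 7 libraries, WT replicates 1 to 5 and Tg replicates 1 and 2 (edgeR adjusted p up to 0.0773). Cttn (-0.12), the cortical actin protein cortactin, and Ptk2 (-0.08), focal adhesion kinase, did not pass.

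Among Pygo1 partners, 1 of 15 tested passed. Nkd1, a Wnt feedback inhibitor, fell from 8.46 to 18 CPM (median 13.5) to 2.45 to 10.8 CPM (median 5.98), with overlap, a log2 fold change of -0.99 (SE 0.28) and edgeR adjusted p = 0.0486. That call was lost without any 1 of 10 of the 13 libraries, all but Tg replicates 4, 5 and 6 (edgeR adjusted p up to 0.1). The paralog Pygo2 (-0.04), Ctnnb1 (0.06), which encodes beta-catenin, and its coactivator Bcl9l (-0.42) did not pass.

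Among Ras regulators, 1 of 14 tested passed, in the direction opposite to Rasgrf2. Rasgrp1, a diacylglycerol-responsive exchange factor known from lymphocytes, rose from 0.217 to 0.498 CPM (median 0.377) to 0.361 to 5.21 CPM (median 1.12), with a log2 fold change of 2.21 (SE 0.55, edgeR adjusted p = 0.033). The log2 fold change was 1.53 without Tg replicate 7, and the call was lost without any 1 of 7 libraries, the 6 WT libraries and Tg replicate 1 (edgeR adjusted p up to 0.0716), while without Tg replicate 2 or 3 the gene was too low to test. The paralog Rasgrf1 was barely detected, with at most 9 reads in an established library. Nf1 (-0.11) and Rac1 (0.01), a Ras-inactivating protein and a small GTPase, did not pass.

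None of the 14 tested nitric oxide and cyclic GMP genes passed. The paralog Gucy1a1 stood at 2.74 to 13.4 CPM in established WT (median 4.46) and 1.15 to 3.32 CPM in Tg mice (median 3.04; log2 fold change -1.16, SE 0.37, edgeR adjusted p = 0.0714). The obligate beta subunit Gucy1b1 gave -1.25 (SE 0.37, edgeR adjusted p = 0.0595). The natriuretic peptide receptors Npr2 (-0.14) and Npr1 (-0.15) were near 0. None of the 6 tested Mlc1 partners passed, among them the gap junction gene Gja1 (-0.45) and caveolin gene Cav1 (-0.25).

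None of the 6 tested Popdc3 relatives passed at the established stage, although their median log2 fold change was -1.16. Several of them, such as Cav3 (-1.75) and Dysf (-1.38), are also muscle genes, and the skeletal muscle markers had a median of -1.71 in the same libraries. The part of muscle in these values was not tested. Popdc1, the paralog that neighbours Popdc3 on the same chromosome, stood at 3.77 to 24.1 CPM in established WT (median 6.43) and 1.66 to 6.92 CPM in Tg mice (median 2.77), with a log2 fold change of -1.61 (SE 0.48, edgeR adjusted p = 0.0606). The potassium channel Kcnk2 (-0.83) and the adenylyl cyclase Adcy9 (0.25) did not pass. Of 3 tested zona pellucida domain relatives of Oit3, Tgfbr3, a co-receptor for transforming growth factor beta, rose (0.65, SE 0.18, edgeR adjusted p = 0.0487), and this was lost without any 1 of 11 of the 13 libraries, all but WT replicate 3 and Tg replicate 7 (edgeR adjusted p up to 0.0969). Eng (-0.06), another co-receptor of that family, did not pass, and Cuzd1 was too low to test.

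Of 39 tested BTB zinc finger relatives of Zbtb47, 2 passed in opposite directions. Zbtb1 fell by 0.23 on the log2 scale (SE 0.06, edgeR adjusted p = 0.0395), but stood at 0.09 on library totals. Zbtb16 rose from 42.7 to 100 CPM (median 77.3) to 91 to 301 CPM (median 127), with a log2 fold change of 1.05 (SE 0.26, edgeR adjusted p = 0.0349). The call of Zbtb1 was lost without any 1 of 8 libraries, WT replicates 1 to 5 and Tg replicates 1, 2 and 3 (edgeR adjusted p up to 0.0903). That of Zbtb16 was lost without any 1 of 7, the WT libraries other than replicate 3 and Tg replicates 1 and 2 (edgeR adjusted p up to 0.0752). Zbtb20 (-0.56, edgeR adjusted p = 0.0526) and Zbtb4 (-0.13) did not pass.

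Markers of other cell types were measured because several of the 9 genes are named for neural or muscle tissue. Of 10 tendon fibroblast markers, 4 were lower in established Tg mice, namely both reference genes, Col1a2 (-2.23) and tenomodulin gene Tnmd (-2.03). The other 6 did not pass, with log2 fold changes from -0.34 for Mkx to -2.26 for Kera. The list summed to 101509 to 192153 CPM in established WT and 7225 to 81122 CPM in Tg mice, a sum made up largely of Col1a1 and Col1a2. The part of these cells in the loss of the 9 genes was not tested. Of 11 skeletal muscle markers none passed, although all 11 log2 fold changes lay below 0, from -0.92 to -2.78 with a median of -1.71. Their sum ran from 220 to 50249 CPM in established WT and from 139 to 14109 CPM in Tg mice, overlapping widely. Within groups, the muscle score correlated with Popdc3 at r = 0.10, with Pygo1 at 0.41 and with Srcin1 at -0.45, as a description.

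Neural markers were low throughout. The neuron list summed to 9.02 to 18.1 CPM in established WT and 3.45 to 12.3 CPM in Tg mice, with Snap25, Syt1 and Nefl under 1 CPM in every library and 1 of 4 tested markers higher, Tubb3 (1.33). Of 4 tested astrocyte markers 1 rose, the glutamate transporter Slc1a3 (1.12), while Gfap (0.07), Slc1a2 (0.02) and Aldh1l1 (1.92) did not pass. Aqp4, too low to test, had means of 1.25 CPM in established WT and 0.207 CPM in Tg mice, and Gfap stayed at or under 1.33 CPM in every library. The list summed to 9.9 to 14.5 CPM in established WT and 15.9 to 24 CPM in Tg mice, with means of 6.25 and 13.6 CPM for Slc1a3. None of 6 tested Schwann cell markers passed, with sums of 33.8 to 104 CPM in WT and 43.6 to 318 CPM in Tg mice.

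Of the other lists, 1 of 6 macrophage markers was higher in established Tg (Cd163, 1.07; sums of 398 to 590 CPM in WT and 508 to 807 CPM in Tg). Among pericyte and smooth muscle markers 1 of 6 was lower (Acta2, -0.72), and among chondrocyte markers 2 of 5 tested were lower (Col2a1, -1.63; Matn3, -2.50). None passed of 7 endothelial, 1 keratinocyte, 4 erythroid and 2 adipocyte markers tested, and no osteoblast marker was abundant enough to test. At the early stage no marker of any list passed by edgeR.

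The genes whose log2 CPM over the 28 libraries most resembled the mean of the 9 standardised genes, among 14572 genes with a mean of at least 1 CPM, were Pcolce (r = 0.952), the procollagen C-proteinase enhancer, the collagen-binding integrin gene Itga2 (0.951), the collagen-binding glycoprotein gene Sparc (0.950), Igfbp4 (0.948), C1qtnf6 (0.945), Col1a2 (0.945), Gsg1l (0.943), Col1a1 itself (0.941), Fkbp9 (0.941) and Matn2 (0.940). Scx stood at 0.905, with 72 other genes above it. These correlations include the group differences that the 9 genes share by choice and are given as descriptions.

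Taken one by one, the nearest genes differed. Zbtb47 was nearest to Sdc1 (r = 0.972), Gpr27 (0.964) and the collagen-inducing factor gene Creb3l1 (0.964). Oit3 was nearest to Sparc (0.972), the keratocan gene Kera (0.968) and Matn2 (0.968), and Srcin1 to the Wnt inhibitor gene Wif1 (0.964), Sparc (0.946) and Gpr27 (0.942). Pygo1 was nearest to Scube2 (0.962), Igdcc4 (0.960) and Exoc3l2 (0.950), and Rasgrf2 to Gsg1l (0.945), Dclk2 (0.940) and C1qtnf6 (0.932). Kcnb2 was nearest to Nalf1 (0.942), Tcea3 (0.941) and Gsg1l (0.939), and Popdc3 to Matn2 (0.934), Cd81 (0.931) and Cavin3 (0.930). The weakest likenesses were those of Mlc1, to Camk2b (0.874), Pdgfa (0.864) and St8sia1 (0.863), and of Gucy1a2, to Pcdhb12 (0.823), Pcdhb14 (0.775) and Nrep (0.759). With Scx and Col1a1 over the same libraries, Gucy1a2 stood at r = 0.534 and 0.471, against 0.755 to 0.931 and 0.784 to 0.958 for the other 8 genes.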

How the data were processed

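Total RNA from whole tail tendon fascicles was depleted of ribosomal RNA and sequenced in pairs (NEBNext Ultra kit). The authors aligned reads with STAR to GRCm39 with GENCODE release 26 and deposited raw counts per gene and mouse from featureCounts, and the strand setting was not given in the sources used here. The study tested with DESeq2 under default parameters. Total counts of 9645598 to 66894396 per library set the precision.

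Identifiers were named from GENCODE release 39 (25505 of 25719 matched). Counts were filtered (filterByExpr, minimum count 10, total 15), scaled by TMM and tested by edgeR 4.0.16 quasi-likelihood in R 4.3.3, Tg against WT within each stage, with the difference between stages fitted over all 28 libraries and Benjamini-Hochberg adjustment over all genes at a threshold of 0.05. DESeq2 1.42.0 was an alternative. Within-group correlations used log2 CPM (prior count 2) and 100000 permutations, 2-sided, or all orders within 1 group. The fits were tested on simulated data. Sequences were read from the GRCm39 genome at GENCODE canonical starts.

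The members, partner lists, marker lists and motifs were chosen with earlier results of these data known. The text names the members, Scx, Col1a1, paralogs, for each partner list the genes called at either stage and up to 2 uncalled genes of highest mean CPM, and the genes of most similar pattern (3 for each member and 10 for their mean). Gucy1b1, Cav3, Dysf and the single markers were named after their values were seen. WT and Tg libraries with equal replicate numbers were compared by their deviations from the group means. These correlated above 0.1 in 7 of 7 early pairs and 4 of 6 established pairs, although no source says that a number marks a shared batch. Of the WT libraries, 0 of 7 early and 2 of 6 established ones correlated best with their own number. The labels name separate mice. Some results are not reported here. Scaling by library totals and removal of a tendon score were added after the data were seen.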

Additional observations from a re-analysis of the deposited data

Results flagged for a closer look

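In 44 sets of values (9 genes and both reference genes in each of 4 groups), 2 held a library far from the rest by Dixon's test, where chance alone is expected to give about 5% of sets. Mlc1 was lowest in established WT replicate 3, at 0.563 CPM, still above all established Tg libraries. Oit3 was lowest in early WT replicate 2, at 33.4 CPM, and the other early WT libraries reached 70.4 CPM.

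The effect of the transgene differed between stages for both reference genes by the test of the difference itself. For Scx the established effect was lower than the early effect by a log2 difference of -1.41 (edgeR adjusted p = 0.0457) and for Col1a1 by -3.04 (edgeR adjusted p = 0.013). Among the partners and relatives the same test passed for Nkd1 (-1.21, edgeR adjusted p = 0.0302), Bcar1 (-0.77, edgeR adjusted p = 0.0471), Kcnk2 (-1.03, edgeR adjusted p = 0.0384), Popdc1 (-1.99, edgeR adjusted p = 0.0478), Zbtb20 (-0.68, edgeR adjusted p = 0.0194) and Zbtb43 (0.47, edgeR adjusted p = 0.0498). Of these, the call of Zbtb20 was kept with each of the 28 libraries left out. The call of Nkd1 was lost without any 1 of 4 libraries (early WT replicate 2, established Tg replicate 1, established WT replicates 1 and 4). That of Kcnk2 was lost without any 1 of 13 (early WT replicates 2, 3, 6 and 7, early Tg replicates 2, 4, 5 and 6, established WT replicates 1 to 5). That of Popdc1 was lost without any 1 of 18 (early WT replicates 1, 2, 3 and 7, early Tg replicates 1 and 4 to 8, established WT replicates 1, 5 and 6, established Tg replicates 1 to 4 and 6). That of Bcar1 was lost without any 1 of 19, all but early WT replicates 4 and 5, early Tg replicates 7 and 8, established WT replicate 6 and established Tg replicates 3, 4, 6 and 7. That of Zbtb43 was lost without any 1 of 24, all but early WT replicate 5 and established Tg replicates 4, 6 and 7. On library totals without scaling factors Zbtb20 did not pass (-0.19, edgeR adjusted p = 0.349). Zbtb43 was named after its values were seen.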

How the results depend on the processing

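The established log2 fold changes of the 9 genes kept their sign under every alternative run, with medians of -1.38 on library totals to -1.83 without Tg replicate 6, and -1.77 with the replicate block. A filter at a mean of 1 CPM left out Mlc1. Scaling by library totals shifted the median of all genes by 0.32 at the established and by -0.18 at the early stage.

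Of the established partner genes, 7 passed, against 18 with DESeq2, 4 without a filter, 13 with all libraries in 1 fit, 15 with the muscle score, 13 with sex as a covariate, 3 in females only and 58 on library totals, and 1 to 11 with 1 library left out. With the replicate block 8 passed, and neither Scx (edgeR adjusted p = 0.0643) nor Col1a1 (0.0556) did. The block changed no early call. For the difference between stages 7 passed, against 14 with DESeq2, 4 without a filter, 3 without the established males, 64 on library totals and 2 to 14 with 1 library left out. Zbtb1 reversed to 0.09 on library totals.

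Of the 18 relations to Scx and Col1a1, 10 passed, against 3 on library totals, 2 in early libraries, 5 with the tendon score taken out and 8 to 12 with 1 library left out. Srcin1 with Col1a1 reversed to r = -0.10 in early libraries and Oit3 with Col1a1 to -0.04 with the tendon score taken out. Of the 36 relations between the 9 genes, 1 passed, against 0 on library totals, in established libraries, in early libraries or with the tendon score taken out, 11 with the muscle score taken out and 0 to 5 with 1 library left out. The causes were not tested. Depth limits Mlc1 most.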
